A study of Mus musculus with 12 samples.

Results

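The 10 genes described here are Adamts1, Adamts6, Mmp2 and Loxl3, which encode enzymes that remodel the extracellular matrix, Lama5, Fbln5, Emilin2 and Mgp, which encode matrix glycoproteins, Bgn, which encodes a small proteoglycan, and Igf2, which encodes a growth factor of the meninges and choroid plexus. They were grouped by their roles, with earlier results of these mice known, and taken across all 12 libraries of a count table of 15928 genes. The deposited table has no gene names, so a name was given to a gene only where its mean normalised count matched a single mean in the paper's own DESeq2 table, with a relative difference under 1e-09. In this way 1349 of the 1684 genes in the paper's table were named, and 10 of the 10 genes described here were among them.

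The RNA came from brain sections with dorsal hippocampus and cortex of 5 wild-type (Wt) and 7 Tg2576 (Tg) mice, labelled as 11 months old. The transgene of Tg mice is human APP that bears the Swedish mutation, so these mice model the overproduction of amyloid and not the whole of Alzheimer's disease. Total RNA without ribosomal RNA was sequenced, with library preparation and sequencing in 2 batches, and the comparison of Tg with Wt mice asks which genes differ with the transgene. Each mouse had 15768135 to 20996174 counts, with medians of 17954111 (Wt) and 18714500 (Tg) (two-sided p = 0.73, exact permutation test). Batch 1 held Wt mice 12, 41 and 95 and Tg mice 32, 67, 91, 92 and 93. As labelled, its Wt mice were 1 female (mouse 12) and 2 males and its Tg mice 4 females and 1 male. Sex was thus unbalanced between the genotypes of batch 1. In batch 2 the females 79 and 80 were Wt and the males 68 and 69 were Tg, so there sex cannot be told apart from genotype.

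App, the gene of the amyloid precursor protein, and Xist, the RNA of the inactive X chromosome, served as checks of the labels. Levels are given as CPM, the counts of a gene per 1000000 counts of the library after TMM normalization. App was at 1365 ± 100.5 CPM (SD, n = 5) in Wt and 4392 ± 1160 CPM (SD, n = 7) in Tg mice, with each of the 7 Tg mice above the highest Wt mouse. Such a separation in this direction was seen for 0.22% of all genes tested. Xist was at 198.9 CPM in Wt mouse 41, which is labelled male, while the other labelled males were between 0 and 0.0563 CPM and the females between 149.5 and 233 CPM. The sex label of mouse 41 therefore goes against its Xist level, and results that rest on this mouse are also given without it.

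The matrix of the brain is a mesh of hyaluronan, proteoglycans and glycoproteins around cells, with sheets of laminin-rich basement membrane around vessels and under the pia. The meninges hold fibroblasts that lay down a fibrous matrix of collagens, elastic fibre proteins and small proteoglycans, which the brain tissue beneath them largely lacks. Metalloproteinases of the ADAMTS and MMP families cut matrix proteins, and lysyl oxidases cross-link collagen and elastin.

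The mean level of each of the 10 genes was higher in Tg than in Wt mice, with log2 fold changes from 0.39 for Lama5 to 1.02 for Igf2 and a median of 0.68, against a median of -0.00295 over all genes tested. The Wt and Tg mice overlapped in 10 of 10 genes. None of these genes reached an adjusted p under 0.1 in edgeR (0 of 10, adjusted p from 0.625 to 0.714) or in DESeq2 (0 of 10, adjusted p from 0.363 to 0.633). At an unadjusted p under 0.05, 6 of the 10 were higher in Tg mice in edgeR and 10 of 10 in DESeq2. Among all genes tested, edgeR called 0.00628% at the adjusted threshold, which is App alone, and DESeq2 called 0.352%, and the shares higher in Tg mice at an unadjusted p under 0.05 were 4.46% and 4.49%. The genes with a name are those selected by the test of the paper itself, run on these mice (1097 of the 1349 had an unadjusted p under 0.05 in edgeR here), so the common direction of the 10 genes is not independent of how they came to have names, and nothing is read from these shares. In bulk tissue, fewer cells of a type and less RNA per cell cannot be told apart.

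**Figure D1:**
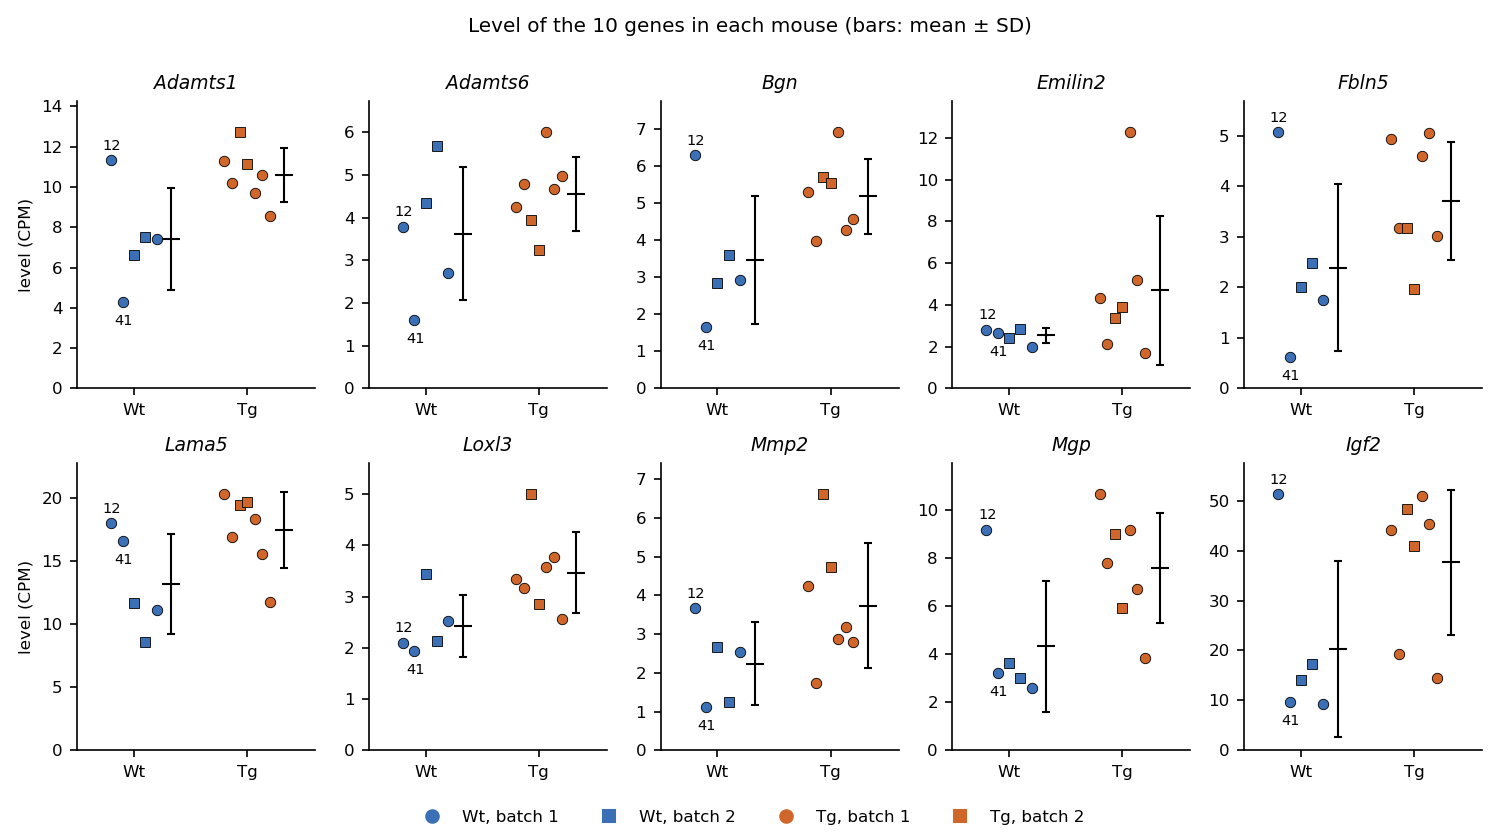
Level of each of the 10 genes in CPM (vertical axis, from 0) in every Wt mouse (blue) and Tg mouse (orange), with circles for batch 1, squares for batch 2 and bars for the mean ± SD (n = 5 and n = 7). The groups overlap in 10 of 10 genes, with Wt mouse 12 among the Tg mice in most of them and Wt mouse 41 lowest of all mice in 6 genes.

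As a description of genes that have a common direction here, the sequence just before the start of 4 of the 10 genes is shown. The RefSeq promoter table used (GRCm38.p6) held 11 windows of 250 bases before a start for 6 of the 10 genes, and it had no entry for Adamts6, Loxl3, Mmp2 and Mgp. Capitals mark matches on either strand to the GC box GGGCGG, the TATA box TATAAA and the CCAAT box CCAAT, and matches that overlap form 1 run of capitals. These letters were found in 32.7%, 12.4% and 33.8% of 32851 windows of this length before gene starts, whose median GC content was 52.4%, with a median of 6 CpG dinucleotides. The 4 windows are on the minus strand for Adamts1 (chr16:85803114-85803363), Lama5 (chr2:180225860-180226109) and Igf2 (chr7:142657497-142657746, the most downstream of its 4 starts) and on the plus strand for Bgn (chrX:73483351-73483600).
Adamts1: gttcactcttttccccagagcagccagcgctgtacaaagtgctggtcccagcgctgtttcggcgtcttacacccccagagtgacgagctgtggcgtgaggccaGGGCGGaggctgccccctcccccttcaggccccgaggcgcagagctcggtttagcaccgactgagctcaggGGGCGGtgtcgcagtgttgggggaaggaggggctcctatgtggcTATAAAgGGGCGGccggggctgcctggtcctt
Lama5: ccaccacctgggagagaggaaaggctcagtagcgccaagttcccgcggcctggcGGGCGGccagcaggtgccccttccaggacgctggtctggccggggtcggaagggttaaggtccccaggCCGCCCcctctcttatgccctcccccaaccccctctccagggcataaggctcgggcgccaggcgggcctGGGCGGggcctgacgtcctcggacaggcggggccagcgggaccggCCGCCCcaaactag
Bgn: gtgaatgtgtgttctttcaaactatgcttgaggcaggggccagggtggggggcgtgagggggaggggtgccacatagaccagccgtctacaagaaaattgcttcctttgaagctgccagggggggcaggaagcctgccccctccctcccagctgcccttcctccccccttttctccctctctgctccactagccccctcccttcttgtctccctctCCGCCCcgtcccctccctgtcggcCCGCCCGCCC
Igf2: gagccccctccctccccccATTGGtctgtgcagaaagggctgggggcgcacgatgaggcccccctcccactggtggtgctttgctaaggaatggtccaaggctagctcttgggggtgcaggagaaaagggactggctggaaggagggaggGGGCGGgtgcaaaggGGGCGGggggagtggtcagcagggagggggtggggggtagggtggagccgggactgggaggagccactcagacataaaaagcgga
The Adamts1 window held 65.6% GC, 15 CpG dinucleotides, 3 GC boxes and 1 TATA box, whose first base lay 32 bases before the start. The window of Lama5 was the richest of the 4 in GC (72.4%), with 19 CpG dinucleotides and 4 GC boxes, and that of Bgn held 64.4% GC, 7 CpG dinucleotides and 3 GC boxes. In the Igf2 window there were 2 GC boxes and 1 CCAAT box, and it lay within an intron of Igf2 and of the overlapping gene Gm49394, while the other 3 windows lay outside the exons of any annotated gene. Of the 7 windows not shown, those of Emilin2 held 0 and 1 GC boxes, those of Fbln5 2 and 0, and the other windows of Igf2 0, 0 and 1. A match to these letters describes the window and does not show that a factor binds there.

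Of the enzyme genes, Adamts1 varied least among Tg mice, with an SD of 12.5% of the mean. Adamts1 (chr16:85793827-85803113, minus strand), a secreted protease that cuts the proteoglycans versican and aggrecan, was at 11.3, 4.27, 6.60, 7.51 and 7.43 CPM in Wt mice 12, 41, 79, 80 and 95. Tg mice were between 8.54 and 12.7 CPM with a median of 10.6 CPM. The Tg mice thus lay above 4 of the 5 Wt mice, and Wt mouse 12 lay among them. The log2 fold change was 0.54 (SE 0.20, 95% interval 0.11 to 0.96, edgeR p = 0.0179, adjusted p = 0.625), with an exact permutation p of 0.0139, and it was 0.34 without mouse 41 (edgeR p = 0.0869, exact permutation p = 0.0424) and 0.77 without mouse 12 (exact permutation p = 0.00303). Here and below, the exact permutation test takes no account of sex or batch, while the edgeR fit does. Mouse 12 was left out of that test only after the data were seen, and it lay among the Tg mice in most genes. A smaller exact permutation p without it partly follows from that choice, so nothing is read from such a p. Without mouse 41 the 2 tests of Adamts1 thus fell on different sides of 0.05. Adamts6 (chr13:104287835-104496695, plus strand), a less studied protease of the same family, was at 3.79, 1.61, 4.35, 5.67 and 2.70 CPM in the same order of Wt mice and between 3.24 and 6.01 CPM in Tg mice, with a median of 4.67 CPM. Here the batch 2 mice ran against the batch 1 mice, since both batch 2 Wt mice were above both batch 2 Tg mice. Adamts6 had a log2 fold change of 0.46 (SE 0.21, edgeR p = 0.0504, adjusted p = 0.695), and its exact permutation p was 0.169. Without mouse 41 these were 0.27 and an exact permutation p of 0.464.

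Mmp2 (chr8:92827291-92853420, plus strand), the gelatinase that cuts basement membrane collagen, was at 3.68, 1.11, 2.66, 1.24 and 2.53 CPM in Wt mice 12, 41, 79, 80 and 95. Its level in Tg mice was between 1.73 and 6.62 CPM, with a median of 3.18 CPM. The highest mice were Tg mice 68 and 69 of batch 2, and the log2 fold change of 0.72 over all mice (SE 0.35, edgeR p = 0.0618, adjusted p = 0.714, exact permutation p = 0.0846) was -0.13 in batch 1 alone. Without mouse 41 it was 0.53 (exact permutation p = 0.203), without mouse 12 it was 1.06 (exact permutation p = 0.0333) and without mouse 80 it was 0.48. Loxl3 (chr6:83034173-83052562, plus strand), a lysyl oxidase that cross-links collagen and elastin, was at 2.10, 1.94, 3.44, 2.13 and 2.53 CPM in these Wt mice and between 2.57 and 5.0005 CPM in Tg mice, with a median of 3.35 CPM. Here 4 of the 5 Wt mice were below every Tg mouse, and Wt mouse 79 was above the Tg median. Loxl3 had a log2 fold change of 0.55 (SE 0.21, 95% interval 0.09 to 1.01, edgeR p = 0.0230, adjusted p = 0.637), with an exact permutation p of 0.0202. Without mouse 41 the log2 fold change was 0.48 (edgeR p = 0.0701, exact permutation p = 0.0545). It was 0.52 without mouse 12 (edgeR p = 0.0486, exact permutation p = 0.0515). Loxl3 shares 11.6% of its exon bases with Htra2 on the other strand, so a part of its counts may belong to that gene if strands were not kept apart.

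Among the glycoproteins, Mgp and Emilin2 had the greatest log2 fold changes, level within their SE, and Lama5 the least. Mgp (chr6:136872435-136875823, minus strand), the matrix Gla protein that keeps soft tissue from calcifying, was at 9.16, 3.22, 3.62, 3.01 and 2.59 CPM in Wt mice 12, 41, 79, 80 and 95 and between 3.85 and 10.6 CPM in Tg mice, with a median of 7.78 CPM. The other 4 Wt mice lay below every Tg mouse, and mouse 12 lay among the highest Tg mice. The log2 fold change of Mgp was 0.85 (SE 0.33, 95% interval 0.14 to 1.56, edgeR p = 0.0220, adjusted p = 0.637), with an exact permutation p of 0.0366. Without mouse 12 it was 1.29, with an exact permutation p of 0.00303, the smallest that 4 mice against 7 allow. Leaving out the 1 Wt mouse that lay among the Tg mice makes that separation. Without mouse 41 the log2 fold change was 0.73, with an exact permutation p of 0.0667. Lama5 (chr2:180176373-180225859, minus strand), the alpha chain of laminins in basement membranes, was at 18.03, 16.6, 11.7, 8.57 and 11.1 CPM in Wt mice and between 11.8 and 20.3 CPM in Tg mice, with a median of 18.3 CPM. In this gene mouse 41 was among the higher Wt mice. Lama5 had a log2 fold change of 0.39 (SE 0.18, edgeR p = 0.0537, adjusted p = 0.697), with an exact permutation p of 0.0619, and it was 0.46 without mouse 41 (edgeR p = 0.0536, exact permutation p = 0.0394) and 0.56 without mouse 12 (exact permutation p = 0.0182).

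Fbln5 (chr12:101746565-101819055, minus strand), a fibulin needed to assemble elastic fibres, was at 5.08, 0.611, 2.02, 2.48 and 1.74 CPM in Wt mice 12, 41, 79, 80 and 95 and between 1.97 and 5.06 CPM in Tg mice, with a median of 3.18 CPM. Wt mouse 12 was the highest of all 12 mice and Wt mouse 41, with 11 reads, the lowest. The log2 fold change of 0.73 (SE 0.32, 95% interval 0.04 to 1.42, edgeR p = 0.0406, adjusted p = 0.689) was 0.42 without mouse 41 and 1.09 without mouse 12, and the exact permutation p was 0.0821 over all mice, 0.239 without mouse 41 and 0.00909 without mouse 12. Emilin2 (chr17:71252172-71311978, minus strand), a glycoprotein of elastic fibre surfaces, was at 2.80, 2.66, 2.43, 2.84 and 1.97 CPM in Wt mice and between 1.67 and 12.3 CPM in Tg mice, with a median of 3.90 CPM. The Wt mice lay close together, 5 of 7 Tg mice were above all of them, and Tg mouse 91 stood far above every other mouse. Its log2 fold change was 0.84 (SE 0.39, edgeR p = 0.0513, adjusted p = 0.695), with an exact permutation p of 0.176, and it was 0.46 without mouse 91. Without mouse 41 it was 0.99 (edgeR p = 0.0468, exact permutation p = 0.221).

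Bgn (chrX:73483602-73495933, plus strand), biglycan, a small leucine-rich proteoglycan that binds collagen, was at 6.30, 1.67, 2.84, 3.61 and 2.93 CPM in Wt mice 12, 41, 79, 80 and 95 and between 3.98 and 6.93 CPM in Tg mice, with a median of 5.32 CPM. The Tg mice lay above 4 of the 5 Wt mice, as in Adamts1. Between the groups Bgn had a log2 fold change of 0.64 (SE 0.26, 95% interval 0.08 to 1.21, edgeR p = 0.0288, adjusted p = 0.661), with an exact permutation p of 0.0328, and it was 0.44 without mouse 41 (exact permutation p = 0.0879) and 0.98 without mouse 12 (exact permutation p = 0.00303).

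Igf2 (chr7:142650766-142666816, minus strand), the insulin-like growth factor that meninges and choroid plexus secrete, had the greatest log2 fold change of the 10 genes. Its level was 51.3, 9.60, 14.2, 17.3 and 9.23 CPM in Wt mice 12, 41, 79, 80 and 95 and between 14.5 and 50.9 CPM in Tg mice, with a median of 44.2 CPM. The mice fell into 2 separate sets, with 6 mice between 9.23 and 19.3 CPM (4 Wt mice with Tg mice 67 and 93) and 6 mice between 40.9 and 51.3 CPM (5 Tg mice with Wt mouse 12). The highest of all 12 mice was thus a Wt mouse. The log2 fold change was 1.02 (SE 0.42, 95% interval 0.11 to 1.94, edgeR p = 0.0302, adjusted p = 0.665), with an exact permutation p of 0.0568, and it was 0.87 without mouse 41 (exact permutation p = 0.124) and 1.69 without mouse 12 (exact permutation p = 0.0152). In the annotation 62.8% of the exon bases of Igf2 are shared with Gm49394 on the same strand, so its level is uncertain where reads on shared bases were set aside as ambiguous.

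The counts of genes under a threshold depended on single mice. Leaving out 1 mouse kept the direction in 120 of 120 values. The genes were named through the paper's test on these same mice, so that choice favours a kept direction and nothing is read from it. The median log2 fold change was then between 0.47 and 0.89, against 0.68 over all mice. At an unadjusted p under 0.05 in edgeR, 1 of the 10 genes was higher in Tg mice without mouse 41, Emilin2, and 8 of 10 without mouse 12, while 2.96% and 6.25% of all genes were. The exact permutation test gave a p under 0.05 for 4 of 10 genes over all mice, for 2 without mouse 41 and for 7 without mouse 12, and the shares of all genes higher in Tg mice at that level were 3.64%, 3.34% and 5.49%. Without Tg mouse 68 or Wt mouse 80 the edgeR count was 2 (3.06% and 4.43% of all genes), and without Wt mouse 79 or Tg mouse 91 it was 3 (4.08% and 3.16%). The count was 7 without Tg mouse 67 and 8 without Tg mouse 93. Of all 15928 genes tested, 1044 and 1498 then had such a p in either direction. The share higher in Tg mice was not computed for these 2 fits, so nothing is read from the counts of 7 and 8.

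The mice can be ordered by the mean of the 10 genes, each centred and scaled to an SD of 1 over the 12 mice. Wt mouse 41 was lowest at -1.52, followed by Wt mice 95, 80 and 79 at -0.90, -0.68 and -0.49, and then by Tg mouse 93 at -0.33 and Tg mouse 67 at 0.03. Wt mouse 12 at 0.44 stood among the Tg mice, of which mouse 91 was highest at 0.95. Thus 4 Wt mice formed the low end, and the only Wt mouse outside it was mouse 12. The 10 genes were named through the paper's test of these groups, so the low place of Wt mice is not independent of that choice. Mouse 41 was the lowest of all 12 mice in 6 of the 10 genes, and mouse 12 the highest Wt mouse in 7.

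**Figure D2:**
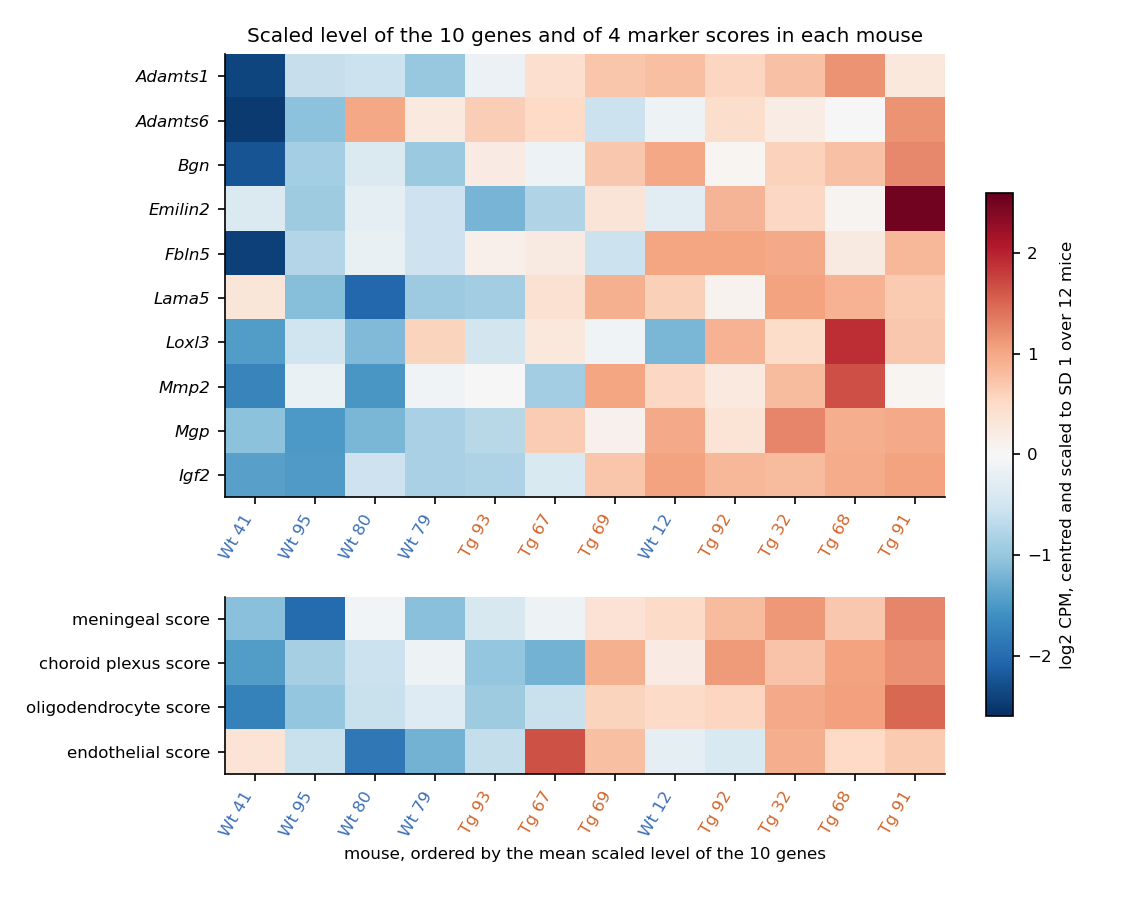
Log2 CPM of the 10 genes and 4 marker scores, each centred and scaled to an SD of 1 over 12 mice (colour), with the mice ordered from left to right by the mean scaled level of the 10 genes. Wt mice 41, 95, 80 and 79 are at the low end, and Wt mouse 12 stands among the Tg mice. The genes were named through the paper's test of these groups, so this order is not independent of that choice.

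Levels between genes were compared per kb of exon, as CPM per kb (mean ± SD over 12 mice). Igf2 at 5.31 ± 3.07 and Mgp at 5.24 ± 2.44 CPM per kb were the most abundant and did not differ beyond their spread, although the Igf2 value is uncertain because of the exon bases shared with Gm49394. Adamts1 at 1.75 ± 0.460 and Lama5 at 1.38 ± 0.345 CPM per kb came next, after the widest step in the order, and again overlapped in their spread. The other 6 genes were all under 1 CPM per kb, from Mmp2 at 0.925 ± 0.462 down through Bgn, Emilin2, Loxl3 and Adamts6 to Fbln5 at 0.457 ± 0.215 CPM per kb, with neighbours in that order within each other's SD. From Igf2 to Fbln5 the level per kb differed 11.6-fold, with the same uncertainty.

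Most pairs of the genes had a Pearson r above 0 over all mice, but only 10 of 36 passed the test. Igf2 was left out of these relations because its mice fell into 2 sets. Between the other 9 genes, 35 of 36 pairs had a Pearson r above 0 (median 0.54) and 10 had a Benjamini-Hochberg adjusted permutation p under 0.05. Within batch 1, which keeps mouse 41, all 36 pairs were above 0, with a median of 0.61. Without the 2 mice farthest from the median of the first gene of a pair, 30 of 36 were above 0, from -0.70 to 0.91 with a median of 0.42, so part of these relations rests on single mice such as mouse 41. The genes have names because of 1 test of Tg against Wt on these mice, so relations between them over all mice are not independent of that choice. By Pearson r over all mice the closest pair was Adamts1 and Bgn (r = 0.91, permutation p = 0.00021, adjusted p = 0.00756, Spearman rho = 0.80, permutation p = 0.00258), with 0.72 without the 2 mice farthest from the median of Adamts1 and 0.89 in batch 1. Other pairs were closer by other measures, such as Adamts1 and Mmp2 by rho (0.86, permutation p = 0.0007) and Adamts1 and Fbln5 in batch 1 (r = 0.98). Lama5 and Mgp had an r of 0.82 (permutation p = 0.00149, adjusted p = 0.0110, rho = 0.81, permutation p = 0.00223), with 0.74 without 2 mice and 0.83 in batch 1. The mean r with the other 8 genes was lowest for Adamts6 (0.39), Lama5 (0.42) and Emilin2 (0.42), and Adamts6 had the 1 value below 0, -0.17 with Lama5 (permutation p = 0.606, rho = -0.19, permutation p = 0.556, 0.17 in batch 1). Its r of 0.78 with Fbln5 (permutation p = 0.00677, adjusted p = 0.0271, rho = 0.40, permutation p = 0.200, 0.88 in batch 1) was 0.20 without mice 41 and 95, so that relation rests on those mice.

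**Figure D3:**
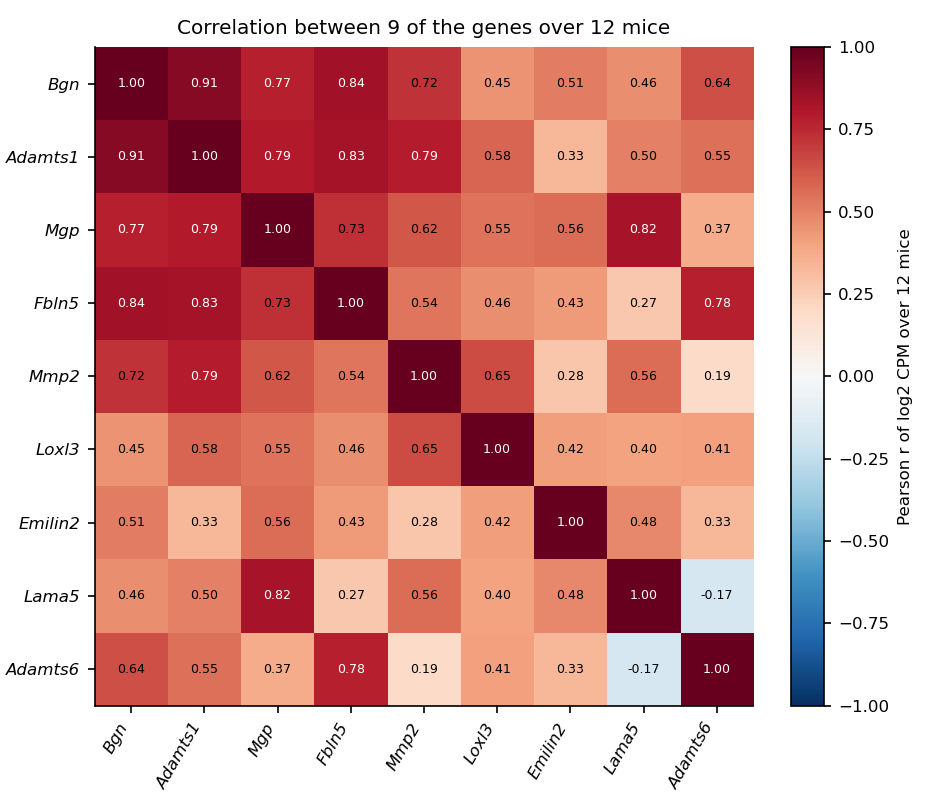
Pearson r between the log2 CPM of 9 of the genes over 12 mice (colour and number), with the genes ordered by their mean r with the others. Adamts1 and Bgn are the closest pair at 0.91, and Adamts6 and Lama5 are the 1 pair below 0.

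The named genes whose level over the 12 mice was most like the mean of the 10 genes were Abca4, Lipe and Ppfibp2 (r = 0.97 for each) and Pcsk6 and Plekhb1 (0.96), with 0.96 to 0.98 within batch 1. These genes were picked for a high r, so no p is given. Adamts1 was most like Sema3b (0.92), Adamts6 like Nts (0.92) and Gad2 (0.90), and Bgn like Rassf4 (0.98) and Sgk2 (0.95). Emilin2 was most like Daam2 (0.92) and Nefh (0.91), Fbln5 like Serping1 (0.93) and Cped1 (0.90), and Lama5 like Bdkrb2 (0.95) and the collagen receptor gene Ddr1 (0.92). Loxl3 had the lowest such values, 0.86 with Gm25523 and with Gm22909. Mmp2 was most like Syngr2 (0.91) and the collagen-cutting cathepsin gene Ctsk (0.89), and Mgp like Gjb1 and Ntsr2 (0.95 for both). For Igf2, whose mice fell into 2 sets, the closest genes were Pcolce, whose product helps to process procollagen, and Car14, and no pooled r is given.

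Marker genes of the meninges were read beside the 10 genes, and 0 of those with a name passed the adjusted threshold in edgeR or DESeq2, while 4 had an unadjusted p under 0.05 in edgeR. Of all named genes 81.3% had such a p, so nothing is read from that count. Of 34 meningeal markers 5 had a name (Slc6a20a, the most abundant, and Foxc1, Perp, Cyp1b1 and Lepr), none of them among the 10 genes, and markers such as Col1a1 and Dcn had none, so whether they were in the table is unknown. Their summed level was 17.7 ± 9.43 CPM in Wt mice (SD, n = 5) and 26.9 ± 5.67 CPM in Tg mice (SD, n = 7). It was 33.1, 12.5, 13.1, 20.04 and 9.62 CPM in Wt mice 12, 41, 79, 80 and 95, and between 18.1 and 33.5 CPM in Tg mice, so Wt mouse 12 was again among the highest. The mean log2 CPM of these markers, the meningeal score, was 0.72 higher in Tg mice. The markers, like the 10 genes, have names only through the paper's comparison of these groups, so no p is given for a difference of any marker score.

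Choroid plexus and oligodendrocyte markers had higher levels in most of the mice in which the 10 genes were high. Of 18 choroid plexus markers 17 had a name, Ttr being the most abundant, and 4 of them (Calml4, Kcne2, Slc4a5 and Tmem72) had no count in at least 1 mouse. Their summed level was 601, 106, 355, 213 and 143 CPM in Wt mice 12, 41, 79, 80 and 95. Tg mice 67 and 93 were at 102 CPM each and the other 5 Tg mice between 1322 and 2379 CPM. These are the same 2 Tg mice that were low in Igf2. The choroid plexus score was 1.76 higher in Tg mice, and 0 of these markers were called by edgeR (17 with an unadjusted p under 0.05, as 81.3% of all named genes) and 2 by DESeq2, Prlr (adjusted p = 2.54e-05) and Trpv4 (adjusted p = 0.0159). Of 12 oligodendrocyte markers 11 had a name, with Mbp the most abundant and Aspa called by DESeq2 (adjusted p = 0.0782), and their summed level was 2008 ± 1007 CPM (SD, n = 5) in Wt and 3804 ± 1650 CPM (SD, n = 7) in Tg mice.

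The 9 genes other than Igf2 were correlated with the 3 scores over the 12 mice, 27 relations in all, between genes and markers that were both named through the paper's test. Relations over all mice, and their p, are therefore not independent of that choice. With the meningeal score r was between 0.47 and 0.86 (median 0.73, 6 of 9 with an adjusted p under 0.05), and in batch 1 it was between 0.59 and 0.92. With the choroid plexus score r was between 0.38 and 0.77 (median 0.67, 7 of 9, 0.50 to 0.84 in batch 1), and with the oligodendrocyte score between 0.51 and 0.86 (median 0.76, 7 of 9, 0.61 to 0.86 in batch 1). Adamts6 had no adjusted p under 0.05 with any of the scores, Loxl3 and Mmp2 had none with the meningeal score, and Lama5 passed with that score alone. Whether the scores differ from each other in this was not tested. Mgp had the highest Pearson r with the meningeal score over all mice (r = 0.86, permutation p = 0.00022, adjusted p = 0.00351, rho = 0.81, permutation p = 0.00219), with 0.81 without mice 79 and 95 and 0.92 in batch 1. By rank Emilin2 was closer to that score (rho = 0.88, permutation p = 0.00044). Bgn had the highest Pearson r with the oligodendrocyte score over all mice (r = 0.86, permutation p = 0.00026, adjusted p = 0.00351, rho = 0.80, permutation p = 0.00266), with 0.74 without mice 41 and 91 and 0.86 in batch 1. Emilin2 and Mmp2 were level at the highest r with the choroid plexus score. Emilin2 was at 0.77 (permutation p = 0.00071, adjusted p = 0.00639, rho = 0.85, permutation p = 0.00073), with 0.81 without mice 41 and 67 and 0.84 in batch 1. Mmp2 was also at 0.77 (permutation p = 0.00322, adjusted p = 0.0100, rho = 0.76, permutation p = 0.00644), with 0.63 without these mice and 0.74 in batch 1. Within the 7 Tg mice r with the meningeal score was between 0.11 and 0.89, with an exact permutation p under 0.05 for 2 of 9 genes, and r with the oligodendrocyte score was between -0.046 and 0.86, with 3 of 9. No r with the choroid plexus score is given within Tg mice, which split into 5 high and 2 low mice. Adamts6 followed the choroid plexus score least (r = 0.38, permutation p = 0.239, rho = 0.22, permutation p = 0.485, 0.57 in batch 1), and its r of 0.51 with the oligodendrocyte score (permutation p = 0.0821, rho = 0.26, permutation p = 0.416, 0.71 in batch 1) was -0.11 without mice 41 and 91.

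Within its lower set of 6 mice, Igf2 had an r of 0.88 with the meningeal score (exact permutation p = 0.0167, rho = 0.89, exact permutation p = 0.0333), and within its upper set of 6 mice r was 0.29 (exact permutation p = 0.547, rho = 0.20, exact permutation p = 0.714). With the choroid plexus score r was 0.23 in the lower and -0.23 in the upper set, and with the oligodendrocyte score it was 0.73 and 0.40, with exact permutation p from 0.0958 to 0.676. Every mouse of the upper set had a higher meningeal, choroid plexus and oligodendrocyte score than any mouse of the lower set. None of these 6 relations had a Benjamini-Hochberg adjusted p under 0.05 (lowest adjusted p = 0.1, exact permutation).

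**Figure D4:**
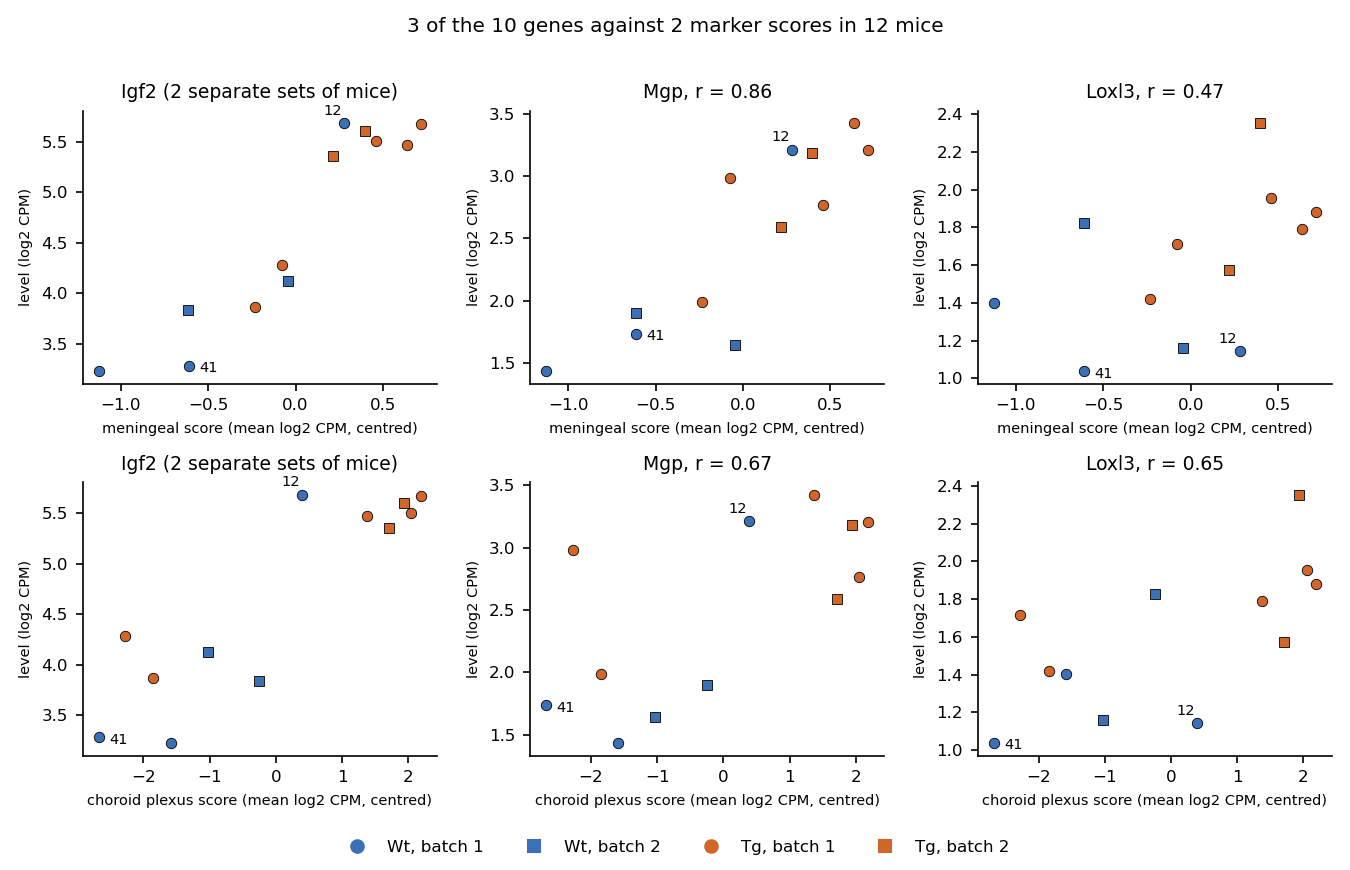
Log2 CPM of Igf2, Mgp and Loxl3 (vertical axis) against the meningeal score and the choroid plexus score (horizontal axis, mean log2 CPM of the named markers, centred) in 12 mice, with Wt in blue, Tg in orange, circles for batch 1 and squares for batch 2. Igf2 splits into 2 sets of mice, r with the meningeal score is 0.86 for Mgp and 0.47 for Loxl3, which did not pass the test.

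With the meningeal score added to the edgeR fit, 0 of 10 genes had an unadjusted p under 0.05, while 1.77% of all genes were higher in Tg mice at that level, and the median log2 fold change of the 10 genes was 0.15. Loxl3 at 0.56 and Adamts6 at 0.49 kept values near those without the score, while Igf2 at -0.36, Emilin2 at -0.23, Mgp at -0.12 and Lama5 at -0.11 were below 0. With the choroid plexus score added, 1 of 10 genes had an unadjusted p under 0.05, Adamts6 (log2 fold change 0.58), against 1.73% of all genes, and Emilin2 was at -0.067. The markers of both scores were named through the paper's test of these groups, so values with a score added are not independent of that choice. DESeq2 was not run with a score. The part of meningeal, choroid plexus or oligodendrocyte content of the sections in the difference between Tg and Wt mice was not tested.

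**Figure D5:**
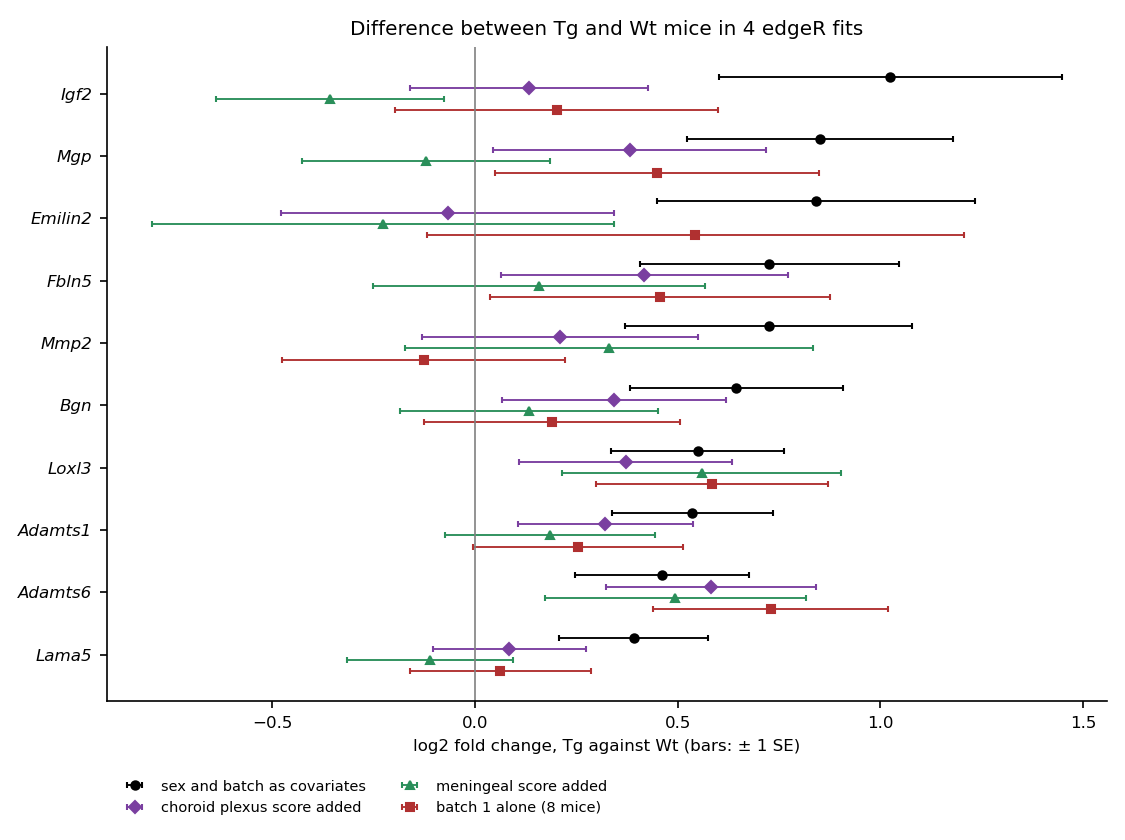
Log2 fold change of each of the 10 genes between Tg and Wt mice (horizontal axis, bars ± 1 SE) in edgeR fits with sex and batch (black), with the choroid plexus score added (purple), with the meningeal score added (green) and in the 8 mice of batch 1 alone (red). Adamts1, Adamts6, Bgn, Fbln5 and Loxl3 stay above 0 in all 4 fits, and Igf2 moves from 1.02 to -0.36 with the meningeal score.

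Within batch 1 alone, 3 Wt mice with mouse 41 among them and 5 Tg mice, the median log2 fold change of the 10 genes was 0.35. Adamts6 (log2 fold change 0.73) was the 1 gene with an unadjusted p under 0.05, against 2.11% of all genes higher in Tg mice. Igf2 was at 0.20, Mgp at 0.45, Loxl3 at 0.58, Bgn at 0.19 and Lama5 at 0.06 in batch 1. The difference between batch 2 and batch 1 themselves had an unadjusted p under 0.05 for 0 of 10 genes in edgeR (lowest adjusted p = 0.681) and for 7.64% of all genes, and no gene passed the adjusted threshold. DESeq2 was not run for this term. The Tg effect was greater in batch 2 than in batch 1 at an unadjusted p under 0.05 of edgeR's interaction term for 4 of the 10 genes (Bgn, Lama5, Mmp2 and Igf2), against 2.55% of all genes, and greater in males than in females for 2 (Fbln5 and Mgp), against 2.03% of all genes. With mouse 41 entered as female, 0 of 10 genes had such a sex difference of the Tg effect in edgeR, against 5.88% of all genes, and 1 gene of the table passed the adjusted threshold. None of these 6 terms passed the adjusted threshold (adjusted p = 0.997 for batch and 0.992 for sex), and in batch 2 sex and genotype cannot be told apart.

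Sex was compared in the same fit, which answers whether the genes differ between males and females as labelled. The estimate was lower in males for 9 of the 10 genes. The share of all genes with a lower estimate was not computed, so nothing is read from that count. Fbln5 (log2 difference -0.90, SE 0.33, edgeR adjusted p = 0.379) and Igf2 (-0.73, SE 0.45, edgeR adjusted p = 0.535) were the lowest. Fbln5 and Adamts6 (-0.64, SE 0.21, edgeR adjusted p = 0.351) had an unadjusted p under 0.05, and 5.39% of all genes were lower in males at that level. With mouse 41 entered as female 6 genes were lower in males and 4 higher, Emilin2 was the lowest (-0.78), Fbln5 was at -0.55, Igf2 at -0.53 and Adamts6 at -0.44, and none had an unadjusted p under 0.05 in edgeR, while 2.37% of all genes were lower in males at that level, so the counts and the order of the 10 genes rest on the label of that mouse.

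Matrix genes were also read from 5 lists in the same fit, which hold no collagens and take in the 10 genes themselves. None of the named genes of these lists passed the adjusted threshold in edgeR or in DESeq2. In edgeR 81.3% of all 1349 named genes reached an unadjusted p under 0.05, and 55.9% were higher in Tg mice, so the counts below describe genes already selected and nothing is read from them. Of 88 matrix glycoprotein genes 17 had a name, 13 of them higher in Tg mice, with an unadjusted p under 0.05 for 8 higher and 3 lower and a median log2 fold change of 0.65. The 17 hold 4 of the 10 genes, and of the other 13, 9 were higher in Tg mice and 9 had an unadjusted p under 0.05. Outside the 10 genes, Spp1, the gene of osteopontin, had a log2 fold change of 1.92 (SE 0.51, edgeR adjusted p = 0.597), Tgfbi, an adhesion protein gene induced by TGF-beta, 0.95 (SE 0.27, edgeR adjusted p = 0.610), and Mfge8, a bridging protein in the uptake of dying cells, -0.29 (SE 0.10, edgeR adjusted p = 0.616). Of 26 proteoglycan and link protein genes 4, Bgn among them, had a name (median 0.21), 2 higher and 2 lower at an unadjusted p under 0.05. Hapln2, a link protein of nodes of Ranvier, was at 1.16 (SE 0.35, edgeR adjusted p = 0.611), and Ncan, the brain proteoglycan neurocan, was at -0.25 (SE 0.08, edgeR adjusted p = 0.611) and so had the opposite sign to Bgn.

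Of 76 genes of remodelling enzymes and their inhibitors 12 had a name, and 12 of 12 were higher in Tg mice, 9 with an unadjusted p under 0.05, with a median of 0.58. The 12 hold 4 of the 10 genes. The other 8 were all higher, 7 with an unadjusted p under 0.05, which 81.3% of all named genes had in edgeR. Pcolce2, an enhancer of procollagen processing, had a log2 fold change of 1.31 (SE 0.39, edgeR adjusted p = 0.611), Sulf1, which trims sulphate from heparan sulphate, 0.57 (SE 0.17, edgeR adjusted p = 0.611), and Plod1, a lysyl hydroxylase of collagen, 0.41 (SE 0.14, edgeR adjusted p = 0.611). Without mouse 41 the counts at an unadjusted p under 0.05 were 5 of 17 for glycoproteins and 4 of 12 for remodelling genes, and without mouse 12 they were 13 and 10. Of 21 genes of the insulin-like growth factor axis Igf2 and Igfbp5 had a name, and Igfbp5, a binding protein, was at 0.24 (SE 0.10, edgeR adjusted p = 0.677). Of 27 BMP and TGF-beta signalling genes 3 had a name (median 0.38), the receptor genes Tgfbr2 at 0.38 (SE 0.11, edgeR adjusted p = 0.610) and Acvr1 at -0.33 (SE 0.15, edgeR adjusted p = 0.689) and the target gene Id3 at 0.39 (SE 0.18, edgeR adjusted p = 0.689).

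Markers of the other cell types of the sections give the setting of these values. The named endothelial markers, Esam and Tie1, 2 of 13, summed to 13.2 ± 2.45 CPM (SD, n = 5) in Wt and 17.1 ± 2.88 CPM (SD, n = 7) in Tg mice, and none of 11 mural cell markers had a name. The 3 named of 11 neuron markers, of which Camk2a was the most abundant, summed to 4147 ± 762 CPM in Wt and 3543 ± 430.3 CPM in Tg mice. Camk2a (log2 fold change -0.25) and Slc17a7 (-0.26) carry that sum, while Gad2 of inhibitory neurons was at 0.27, and the mean log2 CPM of the 3 differed by -0.073. The 5 named of 10 astrocyte markers, of which Slc1a2 was the most abundant, summed to 3067 ± 301 CPM in Wt and 2715 ± 256 CPM in Tg mice. That sum is mostly Slc1a2, a glutamate transporter gene with a log2 fold change of -0.32, while Gfap, the intermediate filament gene of astrocytes, was at 1.01 (adjusted p = 0.574 in edgeR and 0.00205 in DESeq2), Agt at 0.75 (0.501 and 0.00474) and the mean log2 CPM of the 5 markers 0.31 higher in Tg mice. Named microglia markers (3 of 11, C1qb the most abundant) summed to 65.9 ± 6.17 and 80.4 ± 8.04 CPM, and named ependymal markers (2 of 8, Tppp3 the most abundant and called by DESeq2 with an adjusted p of 0.0594) to 31.0 ± 4.99 and 45.8 ± 8.63 CPM.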

How the data were processed

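The authors sequenced total RNA without ribosomal RNA on an Ion Torrent S5XL, aligned it to mm10 with STAR and Bowtie2, counted unique and unambiguous reads per gene and deposited the raw counts, from which they had removed genes of low count. The deposited table of libraries gives their normalization factors as a ratio to the other libraries. Members and lists were chosen with earlier results of these data known.

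The 12 size factors were solved from the counts and the means in the paper's table, and a name was kept only for a single match under a relative difference of 1e-09 (largest 4.3e-10). Genes were tested with edgeR 4.0.16 in R 4.3.3 (quasi-likelihood F-test, sex, batch and genotype, TMM, filterByExpr, which kept all 15928 genes, and a biological coefficient of variation of 0.201). A Benjamini-Hochberg adjusted p under 0.1 over all genes was a call. DESeq2 1.42.0 with the same terms was the alternative. Single genes were also tested on log2 CPM with a prior count of 2, by exact two-sided permutation over 792 splits (smallest p 0.00126). These splits take no account of sex or batch. Correlations used 100000 permutations, two-sided, with numpy 2.4.6, scipy 1.17.1 and Python 3.11.15. A gene was taken to split into sets where the widest gap between neighbouring mice, with at least 2 mice on each side, was over 0.4 of its range.

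Named genes were the 10 genes, App and Xist, the 3 genes of each list with the smallest p, the most abundant gene of each marker list, the 5 genes most like the mean of the 10 and the 2 most like each. The alternatives were normalization, filters, covariates, the sex of mouse 41, marker scores as covariates, batch 1 alone, the thresholds, the prior count and each mouse left out. Positions are from GENCODE M21 on GRCm38.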

Additional observations from a re-analysis of the deposited data

Results flagged for a closer look

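In 20 groups of mice (10 genes in Wt and in Tg mice), 3 held a mouse far from the others, and chance gives about 1 in 20. The 20 groups share the same mice, and Wt mouse 12 was flagged in both Mgp and Igf2, so that rate does not hold for them as independent groups. Emilin2 was at 12.3 CPM in Tg mouse 91, with the next mouse of the group at 5.19 CPM, a gap of 0.668 of the range of the group. Wt mouse 12 was at 9.16 CPM in Mgp, with the next Wt mouse at 3.62 CPM (gap 0.843 of the range), and at 51.3 CPM in Igf2, with the next at 17.3 CPM (gap 0.808 of the range).

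The Tg effect, a log2 fold change, differed between the batches at an unadjusted p under 0.05 of edgeR's interaction term in 4 of the 10 genes. Batch 2 minus batch 1 gave 1.49 for Bgn, 1.04 for Lama5, 2.61 for Mmp2 and 2.95 for Igf2. The effect in males minus that in females was 1.69 for Fbln5 and 1.81 for Mgp, again at an unadjusted p under 0.05 in edgeR. Adjusted over all genes, edgeR's adjusted p was 0.997 for the batch terms and 0.992 for the sex terms of these genes. With mouse 41 entered as female the sex differences were 0.23 for Fbln5 and 1.48 for Mgp, and 0 of the 10 genes had an unadjusted p under 0.05 in edgeR. Of all genes, 5.88% had a greater Tg effect in males at that level. These terms were chosen after seeing the data, and their cause was not tested.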

How the results depend on the processing

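No paired analysis was possible because the mice were not paired. No filter and the deposited normalization factors gave the same 20 log2 fold changes of the 10 genes as the fit reported. Of 205 under the other alternatives, 199 kept their direction and stayed short of the adjusted threshold, and 6 reversed. With the choroid plexus score added, Emilin2 was at -0.067, and with the meningeal score Emilin2 was at -0.23, Igf2 at -0.36, Lama5 at -0.11 and Mgp at -0.12. In batch 1 alone Mmp2 was at -0.13. The median of the 10 genes was 0.15 with the meningeal score. The markers of the scores, like the 10 genes, were named through the paper's test of these groups. Leaving out 1 mouse kept the direction in 120 of 120 values, with a median between 0.47 and 0.89. Between 1 and 8 genes of the 10 then had an unadjusted p under 0.05, and 1 to 2 genes were called among all genes. Because the 10 genes were named through the paper's test on these mice, a kept direction is not independent of that choice.

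Among all genes 1 was called, against 56 in DESeq2, 2 with either score and 0 in batch 1 alone (edgeR, 487 genes at an unadjusted p under 0.05). Of the 10 genes, 10 had an unadjusted p under 0.05 in DESeq2, 1 with the choroid plexus score, 0 with the meningeal score and 1 in batch 1. The stricter filter left 5 of the 10 genes. Of 30 exact permutation values 21 kept their side of 0.05, 4 lost it and 5 gained it. The interaction terms, the lists without mouse 41 or 12, the exact test without mouse 12 and the relations within Tg mice were chosen after seeing the data. Where a value reversed, the cause was not tested. Counts of 11 to 93 reads a mouse in Fbln5, 20 to 131 in Mmp2 and 29 to 111 in Adamts6 limit their precision. The same holds for 30 to 128 reads in Bgn, 30 to 227 in Emilin2 and 35 to 99 in Loxl3.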
